A study of Mus musculus with 192 samples.

Results

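Mouse bone marrow-derived dendritic cells were given 2 ligands of pattern recognition receptors together, PAM and SeV, and were compared with the same cells given either ligand alone. The comparison rests on 9 RNA sequencing libraries chosen by their labels, 3 each of PAM + SeV, PAM and SeV, out of 64 groups of 3 libraries, with the 3 Ctrl libraries as background. Later comparisons also use the cGAMP, PAM + cGAMP, LPS and LPS + SeV groups. A ranking uses all pairs of PAM, LPS, HMW, Zymosan, SeV, cGAMP and CpGB. Per the labels, bone marrow came from female C57BL/6J mice 6 to 8 weeks old, was grown with GM-CSF at 15 ng/mL, plated at 100000 cells per well and stimulated for 6 hours. The groups share that strain and culture, no genetic change is listed for any of them, and no dose is used here. Nothing in the labels says whether replicates came from separate mice or cultures. The p-values thus measure only the spread between libraries within groups, estimated over all 64 groups, which may be technical. In such bulk RNA, fewer cells of a type and less RNA per cell cannot be told apart.

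The labels spell out neither ligand. PAM is commonly short for a Pam-type bacterial lipopeptide, sensed at the cell surface by TLR2 through the adaptor MyD88, which activates NF-kB and induces inflammatory cytokines and neutrophil-attracting chemokines. SeV is commonly short for Sendai virus, an RNA virus sensed in the cytosol by RIG-I (Ddx58 in the files). RIG-I signals through MAVS and IRF3 to interferon-beta, and interferon in turn induces the interferon-stimulated genes.

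Library totals ran from 61823 to 89530 counts of unique molecular identifiers (UMIs) in Ctrl, 144331 to 191207 with PAM, 98864 to 201825 with SeV and 115560 to 178509 with the pair, so low genes are least precise in Ctrl. Levels are given as CPM, TMM-scaled counts-per-million, except the sums of marker lists, which use library totals without TMM factors. Of the dendritic cell markers, H2-Aa, H2-Ab1, Cd74, Itgax and Ccr7 were present in all 4 groups and Cd209a had no count in any of them. Zbtb46 had counts with SeV only (2), and Flt3 had 1, 4, 2 and 0 counts in Ctrl, PAM, SeV and the pair. The summed dendritic cell list spanned 5097 to 6218 CPM over the 12 libraries. The summed macrophage list spanned 13171 to 15045 CPM in Ctrl, 10193 to 10666 with PAM, 9824 to 10317 with SeV and 7641 to 8092 with the pair. Ribosomal protein genes took 5.34 to 5.62%, 4.06 to 4.26%, 3.75 to 3.92% and 3.12 to 3.27% of counts in the same order. Both measures, taken without TMM factors, were lowest in the pair, and their part in the results was not tested. TMM factors were 1.27, 1.26 and 1.27 in Ctrl, 1.12, 1.10 and 1.11 with PAM and 1.11 in each SeV library. They were 0.956, 0.904 and 0.920 with the pair, so TMM scaling would narrow its gap in both measures. Neutrophil markers spanned 681 to 1019 CPM in sum, T, NK and erythroid markers had no count, and those of B cells, mast cells and plasmacytoid dendritic cells had at most 18.6 CPM in sum.

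As examples of promoter sequence from the classes described here, the 250 bases before the start of transcription are given for 4 genes, from RefSeq on GRCm38.p6, 5′ to 3′ on the strand of the gene. Ifit1 was placed in the SeV-level class and Cxcl1 in the PAM-level class, though the pair differed from that ligand for both by less than the fold threshold, and Il6 and Edn1 were above both. Edn1 follows from the rule for named genes, and the others were chosen after their values were seen. Capitals mark matches to GAAANNGAAA (part of the interferon-stimulated response element), to the kB motif of NF-kB or to TGANTCA (the AP-1 motif), each searched on both strands. The windows are chr19:34640639-34640888 for Ifit1, chr5:90890995-90891244 for Cxcl1, chr5:30012864-30013113 for Il6 and chr13:42301226-42301475 for Edn1, all on the plus strand.
Ifit1: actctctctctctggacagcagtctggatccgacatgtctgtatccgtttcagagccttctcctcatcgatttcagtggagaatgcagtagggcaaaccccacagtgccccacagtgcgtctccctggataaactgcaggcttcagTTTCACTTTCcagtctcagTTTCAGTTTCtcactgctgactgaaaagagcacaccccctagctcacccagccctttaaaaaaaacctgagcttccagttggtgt
Cxcl1: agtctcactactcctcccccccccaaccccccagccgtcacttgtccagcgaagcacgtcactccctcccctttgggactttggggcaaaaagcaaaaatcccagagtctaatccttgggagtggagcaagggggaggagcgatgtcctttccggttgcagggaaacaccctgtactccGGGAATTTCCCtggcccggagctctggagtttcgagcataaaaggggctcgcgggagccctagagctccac
Il6: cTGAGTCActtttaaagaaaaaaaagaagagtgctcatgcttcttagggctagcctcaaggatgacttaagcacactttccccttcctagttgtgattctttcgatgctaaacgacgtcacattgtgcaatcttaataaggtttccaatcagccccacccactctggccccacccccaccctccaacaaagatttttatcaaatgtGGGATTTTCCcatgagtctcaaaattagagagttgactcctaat
Edn1: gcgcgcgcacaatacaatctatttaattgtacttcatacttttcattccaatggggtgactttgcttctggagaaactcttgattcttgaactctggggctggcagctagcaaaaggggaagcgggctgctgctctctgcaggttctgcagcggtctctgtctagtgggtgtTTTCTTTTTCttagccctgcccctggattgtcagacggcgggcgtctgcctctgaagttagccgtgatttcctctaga
In Ifit1, GAAANNGAAA matched on the reverse strand from -104 to -95 and from -85 to -76, counted from the start. The kB match of Cxcl1 ran from -71 to -62 and overlapped one on the other strand from -70 to -61. Il6 had a kB match from -44 to -35 and an AP-1 match from -249 to -243, and Edn1 a GAAANNGAAA match on the reverse strand from -78 to -69. Rnd3 and Ch25h, also above both, held none of the 3 motifs in this window.

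The first question was what each ligand added to the other. Calls required a Benjamini-Hochberg adjusted p under 0.05 over the 4720 tested genes in edgeR's quasi-likelihood test and a log2 difference of at least 1 in either direction. Against PAM alone, the pair was higher for 505 genes (10.7%) and lower for 182 (3.86%), 687 in all (14.6%), or 422 by DESeq2. Against SeV alone, it was higher for 244 genes (5.17%) and lower for 148 (3.14%), 392 in all (8.31%). The split depended on scaling: library size alone shifted the median log2 difference of all genes by -0.27 against PAM and -0.26 against SeV, and gave 398 higher and 481 lower against PAM and 179 higher and 275 lower against SeV. Against Ctrl, the pair was higher for 745 genes (15.8%) and lower for 474 (10%), 1219 in all (25.8%). That split became 622 and 664 with RLE factors and 512 and 1026 with library size alone, which shifted the median by -0.19 and -0.45. PAM alone was higher than Ctrl for 378 genes (8.01%) and lower for 278 (5.89%), 656 in all (13.9%), and SeV alone for 495 (10.5%) and 242 (5.13%), 737 in all (15.6%).

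**Figure D1:**
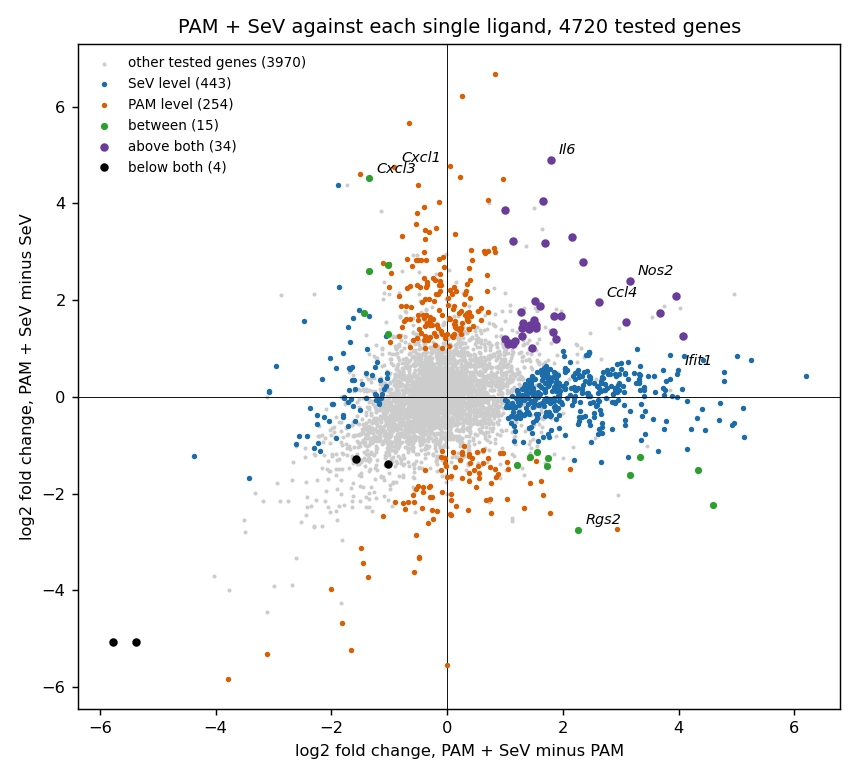
Each point is 1 of 4720 tested genes, with the log2 difference of PAM + SeV minus PAM on the x axis and of PAM + SeV minus SeV on the y axis. Genes at the SeV level (443) lie along the x axis, genes at the PAM level (254) along the y axis, and the 34 genes above both in the upper right.

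Genes above both singles had to exceed each by a log2 difference of 1 or more, with the larger p of the 2 tests passing 0.05 once adjusted. There were 34 (0.72%), among them the chemokines Ccl3, Ccl4 and Ccl5, the cytokines Il6, Il1a, Il18 and Inhba, the costimulators Cd40 and Tnfsf15, and the enzymes Nos2, Ch25h, Ptgs2 and Irg1. The class also held AA467197, Car13, Ccrl2, Cd69, Cers6, Cfb, Dusp2, Edn1, Fam46a, Ikzf1, Maf, Mdfic, Notch2, Rapgef2, Rnd3, Sbds, Slfn4, Tagap, Tsc22d1 and Xkr8. For 31 of them every pair library was above all 6 single-ligand libraries, a layout found in 256 of all tested genes (5.42%), with the reverse in 167 (3.54%). Of the 34, both singles raised 13 over Ctrl, PAM alone 5, SeV alone 4 and neither 12, and the pair was called higher than Ctrl for 33. Library size alone left 21 genes in the class, and 24 were left without replicate 2 of the pair.

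Ccl4, a chemokine that attracts immune cells, was at 789.5, 1159.9 and 864 CPM in Ctrl, 1968, 1755 and 2178 with PAM, 3383, 3035 and 2964 with SeV and 10784, 13042 and 12476 with the pair. The pair libraries stood far above the rest, and no groups overlapped. PAM and SeV differed by less than the threshold. The log2 difference was 2.62 over PAM (SE 0.16, adjusted p = 1.92e-36, edgeR) and 1.96 over SeV (SE 0.16, adjusted p = 1.61e-24). Ccl5, a chemokine that attracts T cells, was at 5144, 4660.4 and 5500.4 CPM with PAM, 5963, 5105 and 4915 with SeV and 13135, 15476 and 15792 with the pair. Its singles overlapped and the pair was above both, by 1.54 and 1.48. Ccl3 was at 4822, 4339 and 4711 CPM with PAM, 1194, 1104 and 1013 with SeV and 9402, 10775 and 10339 with the pair, without overlap. Its margin over PAM of 1.14 shrank below the threshold with library size alone (0.87). Ccl3 and Ccl4 have close relatives, and the handling of reads matching several genes is not given in the sources used here.

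Il6, a cytokine of the acute phase, was at 97, 99.8 and 182 CPM in Ctrl, 1463, 1207 and 1339 with PAM, 182, 138 and 150.1 with SeV and 4137, 4848 and 4899 with the pair. SeV libraries overlapped Ctrl and the pair libraries stood above all others. The log2 difference was 1.80 over PAM (SE 0.14, adjusted p = 8.06e-27, edgeR) and 4.90 over SeV (SE 0.19, adjusted p = 6.37e-65). Ptgs2, the inducible cyclooxygenase of prostaglandin synthesis, was at 157, 216 and 194 CPM with PAM, 9.56, 38.3 and 46.9 with SeV and 489, 687 and 609.8 with the pair. Its 3 groups did not overlap, and the margin over PAM was 1.65. Il1a, which encodes interleukin-1 alpha, was at 2526, 2172 and 2289 CPM with PAM, 373, 360.2 and 253 with SeV and 4438, 4559 and 4956 with the pair. Its margin over PAM sat on the threshold (1.00). It was under the threshold with RLE factors (0.95), library size alone (0.73), DESeq2 (0.98), the compared groups alone (0.97) and thinned libraries (0.995). The same held without replicate 3 of the pair (0.96) and without replicate 2 of PAM (0.99).

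Cd40, through which helper T cells license dendritic cells, was at 387, 372 and 322 CPM with PAM, 478, 353 and 408 with SeV and 1072, 1310 and 1493 with the pair, against 69.3, 112 and 115 in Ctrl. The singles overlapped and the pair was above both, by 1.85 and 1.67 (adjusted p = 2.86e-20 and 2.06e-16, edgeR). Tnfsf15, which encodes the T-cell costimulator TL1A, was at 295, 332 and 389 CPM with PAM, 334, 191.61 and 235 with SeV and 818, 1040.3 and 1051 with the pair. Ch25h, which makes 25-hydroxycholesterol, was at 52.5, 40.2 and 44.4 CPM with PAM, 191, 215 and 117 with SeV and 508, 854 and 729 with the pair. No groups of Ch25h overlapped, and the pair led by 3.95 and 2.10. Irg1, the enzyme that makes itaconate, was at 2349, 2368 and 2367 CPM with PAM, 2599, 2184 and 2125 with SeV and 4654, 5593 and 4682 with the pair. Its singles overlapped, the pair was above both by 1.08 and 1.12, and library size alone brought the smaller to 0.81.

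The naming rule also took the genes of this class with the largest margins. Nos2, the inducible nitric oxide synthase, was at 13.1, 5.03 and 5.56 CPM with PAM, 0, 15.3 and 18.8 with SeV and 18.8, 116 and 70.1 with the pair, or 4, 6 and 30 counts per group. Its lowest pair library was level with the highest SeV library to 3 digits. The margins were 3.16 and 2.40, and the call was lost without replicate 2 of the pair (1.78, adjusted p = 0.466, edgeR) and without replicate 1, 2 or 3 of SeV (adjusted p = 0.0939, 0.0503 and 0.054), as well as in thinned libraries (1.68, adjusted p = 0.465). Edn1, which encodes endothelin-1, was at 65.6, 20.1 and 66.7 CPM with PAM, 19.1, 61.3 and 28.1 with SeV and 179, 302 and 259 with the pair, above both by 2.35 and 2.80. Rnd3, which acts on the actin cytoskeleton, was at 72.2, 15.1 and 27.8 CPM with PAM, 19.1, 15.3 and 14.1 with SeV and 113, 167 and 196 with the pair. In both genes the singles overlapped and the pair did not overlap them. Slfn4, an interferon-inducible Schlafen gene with close relatives, was at 59, 50.3 and 33.3 CPM with PAM, 191, 184 and 178 with SeV and 527, 700.0 and 589 with the pair, without overlap. Inhba, a subunit of activin, was at 59, 101 and 106 CPM with PAM, 76.5, 15.3 and 18.8 with SeV and 216, 411 and 224 with the pair, and its call was lost without replicate 2 of the pair (adjusted p = 0.0525, edgeR).

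**Figure D2:**
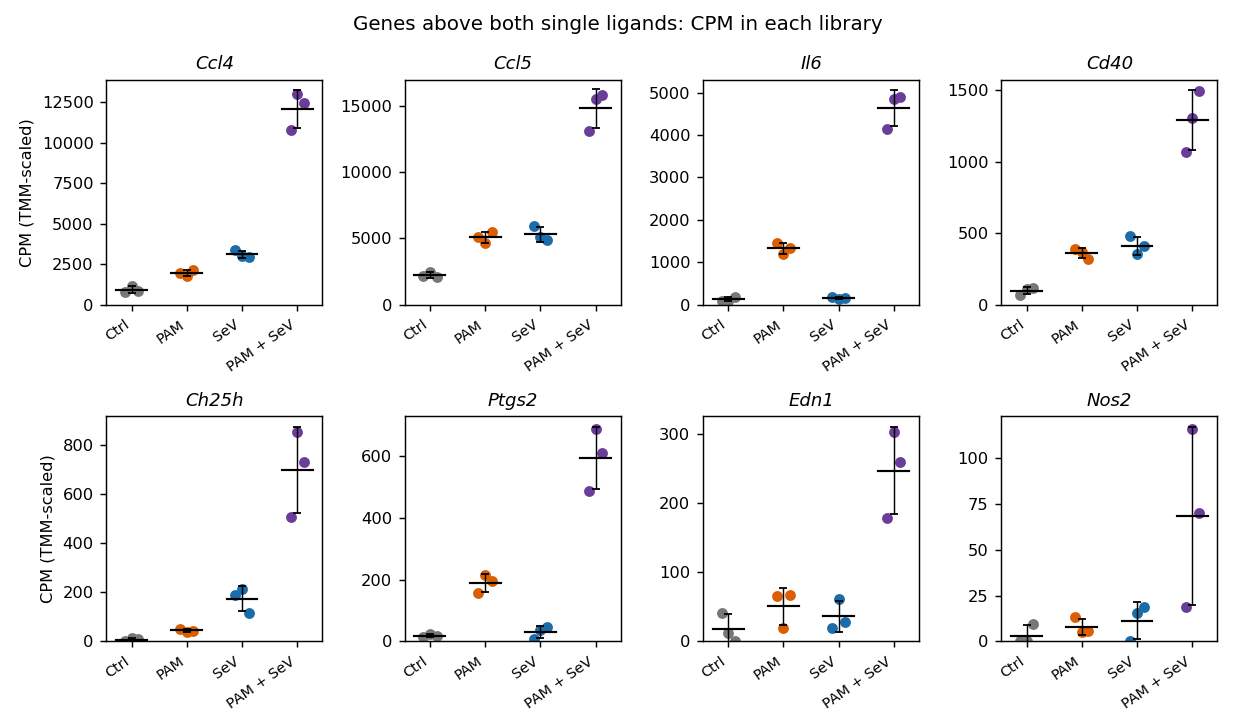
Points are CPM in each library for Ctrl, PAM, SeV and PAM + SeV, with horizontal bars at the mean and vertical bars of 1 SD (n = 3), for 8 genes above both singles. The pair is highest in each panel, from 10784 to 13042 CPM for Ccl4, and from 18.8 to 116 CPM for Nos2.

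On the linear scale, the sum of both single increments over Ctrl, added to Ctrl, came to 4156 CPM for Ccl4, 8204 for Ccl5, 1366 for Il6, 674 for Cd40 and 5144 for Ccl3. Each of these sums was below all 3 pair libraries. That held for 31 of the 34 genes and for 1451 of all tested genes (30.7%), and it is a description, since the class was chosen on the same libraries. Tnf missed the class: it was at 7565, 8114 and 8617 CPM with PAM, 1787, 1824 and 1768 with SeV and 13407, 14866 and 14817 with the pair, without overlap. The rise over PAM of 0.83 (adjusted p = 2.29e-06, edgeR) was under the threshold of 1. Il12b, a subunit of interleukin-12, was at 32.8, 25.1 and 27.8 CPM with PAM and 47, 38.5 and 56.1 with the pair, with 1 count in all with SeV. Its call against SeV (adjusted p = 0.0331, edgeR) was lost in 5 of 6 fits that left out 1 library (adjusted p up to 0.221), with library size alone (0.0503) and in thinned libraries (0.0849). The libraries whose loss ended it were each of the pair and replicates 1 and 3 of SeV. Il10 had 1 count in each stimulated group and none in Ctrl, so no difference was detectable at this depth.

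The second question was which ligand set the level where the singles differed. PAM and SeV differed for 1097 genes (23.2%), 468 (9.92%) higher with PAM and 629 (13.3%) higher with SeV, or 685 in all by DESeq2. A gene was placed at the level of 1 ligand when the pair differed from the other ligand by a call, toward the first, and did not differ by a call from the first, which does not show that those levels are alike. This put 443 genes (9.39%) at the SeV level, or 292 by DESeq2, and 254 (5.38%) at the PAM level. Another 15 (0.318%) lay between and were called against both, 9 (0.191%) lay beyond both, and 376 (7.97%) could not be placed. Of the 629 genes higher with SeV, 374 were at the SeV level and 93 at the PAM level. Of the 468 higher with PAM, 161 were at the PAM level and 69 at the SeV level.

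The position of the pair on the log2 scale, 0 at SeV and 1 at PAM, needs no such threshold. Its median was 0.684 for the 468 genes higher with PAM (quartiles 0.399 and 0.888) and 0.137 for the 629 higher with SeV (quartiles -0.0758 and 0.455). With a mean of 100 CPM or more, the medians were 0.839 over 171 genes and 0.0081 over 293. Of those 171, 103 were at the PAM level and 11 at the SeV level, and of the 293, 219 were at the SeV level and 25 at the PAM level. The libraries that chose the genes also gave the positions, so no test is made.

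**Figure D3:**
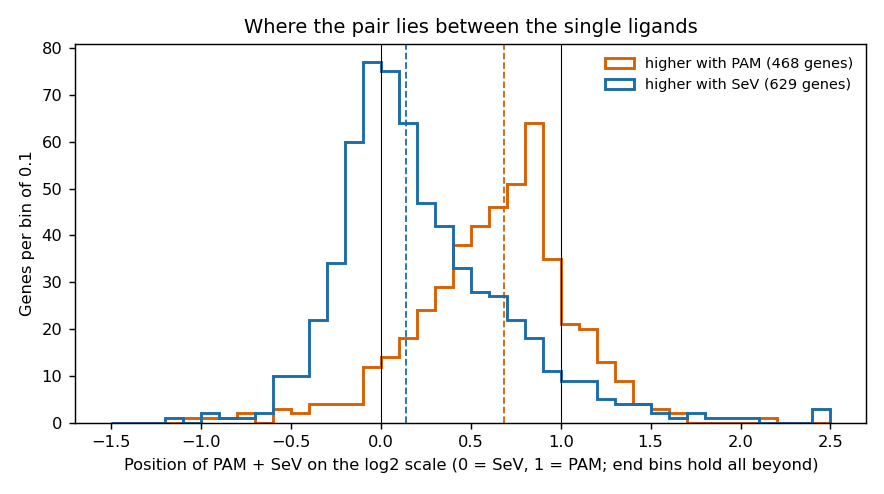
The histogram counts genes per bin of 0.1 by the position of PAM + SeV between SeV (0) and PAM (1) on the log2 scale, for genes called higher with PAM or with SeV, with dashed lines at the medians of 0.684 and 0.137. End bins hold all values beyond them. Genes higher with SeV gather near 0 and those higher with PAM spread below 1.

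Promoter letters were counted over these classes. GAAANNGAAA was in 3.04% of all 27025 windows of this length, in 3.68% of the 3614 tested genes with an entry, in 44 of the 275 matched genes at the SeV level that were higher with SeV (16%) and in 3 of the 121 at the PAM level that were higher with PAM (2.48%). The kB motif was in 7.01%, 8.69%, 11.27% and 12.4% of the same sets. TGANTCA was in 6.87%, 4.59%, 6.55% and 6.61%. Of the 21 matched genes above both, 4 held a kB match, 4 an AP-1 match and 1, Edn1, a GAAANNGAAA match. These are counts of letters, and no link between a motif and a class was tested.

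The interferon-response list lay at the SeV level. All 15 members were in that class (against 9.39% of all tested genes) and were called higher in the pair than with PAM (median log2 difference 3.57, against -0.10 over all tested genes), and none was called against SeV (median 0.36, against -0.0071). Ifit1, which binds foreign RNA ends, was at 295, 382 and 356 CPM with PAM, 4119, 3625 and 3536 with SeV and 5256, 5914 and 5334 with the pair. All pair libraries were above all SeV libraries, by 0.55 (adjusted p = 0.000967, edgeR), under the threshold of 1. Cxcl10, which attracts T cells through CXCR3, was at 486, 598 and 589 CPM with PAM, 7263, 7105 and 6923 with SeV and 11433, 12201 and 12287 with the pair, above SeV by 0.76 (adjusted p = 0.00017). Ifit3 lay the other way, at 3383, 3794 and 3386 CPM with SeV and 2059, 2806 and 2579 with the pair (-0.50, adjusted p = 0.0365). Without the fold threshold, 3 of the 15 passed as higher than with SeV and 1 as lower. Rsad2, the antiviral protein viperin, was at 8778 ± 297 CPM with SeV and 10999 ± 1325 with the pair (SD, n = 3), and Mx1 at 5438 ± 488 and 6409.8 ± 417. Neither passed against SeV. Ifit and Mx genes have close relatives that could share reads.

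Upstream of them, Ifnb1, which encodes interferon-beta, was at 13.1, 15.1 and 33.3 CPM with PAM, 248, 261 and 244 with SeV and 310.3, 250.4 and 301 with the pair. SeV and pair libraries overlapped, and both stood above PAM (3.74 for the pair, adjusted p = 2.99e-15, edgeR). Of 17 tested genes of the RIG-I and interferon pathway, 8 were at the SeV level (against 9.39% of all tested genes), among them the sensors Ddx58, Ifih1 and Dhx58, the ubiquitin ligase Trim25, Ifnb1 and the feedback inhibitor Socs1. Ddx58 was at 177, 116 and 144 CPM with PAM, 659, 667 and 624 with SeV and 715, 777 and 869 with the pair. Ifih1, which encodes the sensor MDA5, was at 148 ± 14.5, 1205 ± 9.24 and 1464 ± 164 CPM in that order (SD, n = 3). Irf3, the factor below MAVS, was called lower than with PAM (72.2, 60.3 and 55.6 CPM against 37.6, 19.3 and 0, log2 difference -1.80), and no member was called against SeV. The list's median log2 difference was 0.54 from PAM and 0.21 from SeV, the latter -0.06 with library size alone. Of 13 tested genes of MHC class I presentation, 9 were called higher than with PAM (against 10.7% of all tested genes) and none against SeV (medians 1.44 and 0.25, the latter -0.01 with library size alone). Tapbp, the peptide-loading chaperone tapasin, was at 780.2 ± 54.7 CPM with PAM, 1516 ± 105 with SeV and 1628 ± 191 with the pair, and its call against PAM was lost with library size alone (0.80).

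By the naming rule, the strongest SeV responses held at the SeV level were I830012O16Rik, Cxcl11, Iigp1 and Gm14446. Iigp1, an immunity-related GTPase with close relatives, was at 13.1, 20.1 and 16.7 CPM with PAM, 822, 606 and 530.0 with SeV and 376, 591 and 378 with the pair, where SeV and pair overlapped. I830012O16Rik was at 0, 15.1 and 11.1 CPM with PAM, 526, 659 and 685 with SeV and 367, 398 and 301 with the pair, the pair below every SeV library (log2 difference -0.83, adjusted p = 0.00147, edgeR). Of the 374 genes at the SeV level that were higher with SeV, 8 were lower and 15 higher than SeV by adjusted p below the fold threshold. In the other direction, Siglece, Slc39a14 and Gadd45a were higher with PAM and fell in the SeV-level class, on few counts and at positions of 0.70, 0.55 and 0.39. Siglece, with 0 counts with SeV and 6 with the pair, lost its call against PAM without replicate 1 or 2 of the pair (adjusted p = 0.162 and 0.153, edgeR), without replicate 1 or 3 of PAM (0.0697 and 0.142), without the filter (0.101) and in thinned libraries (0.146). Gadd45a, a stress-response gene, was at 91.9, 75.4 and 88.9 CPM with PAM, 9.56, 0 and 4.69 with SeV and 0, 25.7 and 14 with the pair, on 2 and 6 counts in the latter groups.

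Of 13 tested members of the inflammatory list, 12 were called higher than with SeV (median 3.87, against 5.17% of all tested genes), 7 were at the PAM level (5.38%), 4 were above both (0.72%) and Il12b and Il10 were in no class. With RLE factors 3 were above both, and with library size alone 2. Il1b, which encodes interleukin-1 beta, was at 7926, 7757 and 8706 CPM with PAM, 506, 337 and 385 with SeV and 9176, 9613 and 9659 with the pair. Each pair library was above each PAM library, yet 0.22 did not pass (adjusted p = 0.157, edgeR). Of 16 NF-kB subunits and inhibitors, 8 were called higher than with SeV (median 1.39, against 5.17% of all tested genes) and 6 were at the PAM level, among them Nfkbia and Tnfaip3, which restrain NF-kB. Nfkbia was at 1558 ± 87.3 CPM with PAM, 638 ± 23.2 with SeV and 1858 ± 19.6 with the pair (SD, n = 3). Zfp36, which destabilizes inflammatory mRNA, was the member called higher than with PAM (1.33). Of 14 tested genes of the TLR2 and MyD88 pathway, the co-receptors Tlr1 and Cd14 and the inhibitor Irak3 were at the PAM level (medians -0.05 from PAM and 0.51 from SeV). Called against PAM were 2 higher and 1 lower, or 1 and 2 with library size alone. Cd14 was at 2047, 2303 and 2461 CPM with PAM, 229, 176 and 305 with SeV and 1843, 1824 and 1640.2 with the pair, below every PAM library (log2 difference -0.36, adjusted p = 0.0372). Myd88 was called higher than with PAM (1.22), at 112, 206 and 139 CPM with PAM and 357, 289 and 449 with the pair, and was under the threshold with library size alone (0.96).

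Large PAM responses were also compared with the pair. Saa3, an acute-phase apolipoprotein, was at 12899, 10734 and 12479 CPM with PAM, 468, 406 and 361 with SeV and 9562, 7269 and 8551 with the pair. Marco, a scavenger receptor for bacteria, was at 5544, 5098 and 4722 CPM with PAM, 268, 222 and 267 with SeV and 4306, 3108 and 3329 with the pair. In both genes every pair library was below every PAM library, with log2 differences of -0.51 (adjusted p = 0.0125, edgeR) and -0.52 (adjusted p = 0.015). Of the 161 genes at the PAM level that were higher with PAM, 21 were lower and 11 higher than PAM by adjusted p below the fold threshold. Lox and 6530402F18Rik had no count with SeV, so the pair was at least 2.58-fold and 5.54-fold higher, against a floor of 3 counts over the group. The call for Lox was lost without any 1 of its 6 libraries. Among genes higher with SeV and at the PAM level, Ccr2, the receptor by which monocytes leave bone marrow, was at 19.7, 0 and 16.7 CPM with PAM, 143, 146 and 169 with SeV and 47, 32.1 and 35 with the pair, clear of SeV, and Xdh and Lpxn were placed with it on few counts.

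Of 17 chemokines, 3 were above both, 6 at the PAM level (Ccl9, Ccl17, Ccl22, Cxcl1, Cxcl2, Cxcl16), 5 at the SeV level (Ccl2, Ccl7, Cxcl9, Cxcl10, Cxcl11) and 2 between (Cxcl3, Ccl12), where those classes held 0.72%, 5.38%, 9.39% and 0.318% of all tested genes. The chemokine medians were 1.14 from PAM and 1.48 from SeV. Cxcl1, a neutrophil attractant, was at 1699, 1629 and 1845 CPM with PAM, 19.1, 30.7 and 42.2 with SeV and 912, 905 and 918 with the pair. The pair was below every PAM library (log2 difference -0.92, SE 0.18, adjusted p = 1.61e-05, edgeR). Cxcl3, which acts on the same receptor, was at 10675, 10708 and 11279 CPM with PAM, 182, 169 and 197 with SeV and 5237, 3243 and 4381 with the pair, called below PAM (-1.35) and above SeV (4.53). Cxcl2 was at 8863 ± 563 CPM with PAM and 8054 ± 225 with the pair and did not pass. On the SeV side, Cxcl9 was at 698, 621 and 469 CPM with SeV and 207, 411 and 301 with the pair (-0.88, adjusted p = 0.0012). Ccl12, a monocyte attractant with close relatives, was at 115, 161 and 164 CPM with SeV and 56.4, 64.2 and 35 with the pair (-1.52, adjusted p = 0.00535). Neither gene's pair libraries overlapped SeV. The call of Ccl9 against SeV (1.05) was at the threshold. It was lost with RLE factors (0.98), library size alone (0.79), the compared groups alone (0.998) and without replicate 3 of SeV (0.98).

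**Figure D4:**
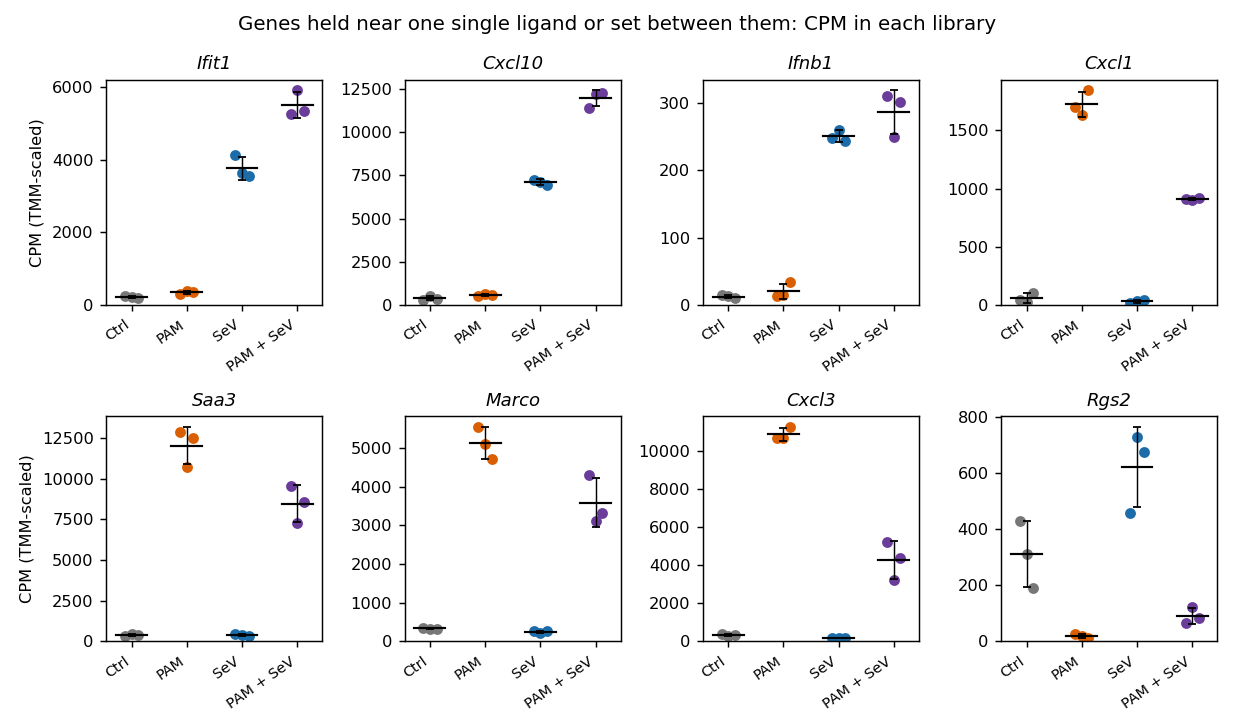
Points are CPM in each library, with horizontal bars at the mean and vertical bars of 1 SD (n = 3). In the pair, Ifit1, Cxcl10 and Ifnb1 sit at or above SeV, Saa3 and Marco slightly and Cxcl1 and Cxcl3 further below PAM, and Rgs2 between the singles.

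The 15 genes between the singles were Abcg1, B430306N03Rik, C3ar1, Ccl12, Cxcl3, Fgl2, Gadd45g, Hpse, Lmo2, Ly86, Ptpre, Rgs2, Rhoq, Sla and Slc6a12. Responses to 1 ligand were also compared with the other ligand present. Of 378 genes raised by PAM, 24 (6.35%) were called lower in the pair than with PAM, against 3.86% of all tested genes. Of 495 raised by SeV, 19 (3.84%) were called lower than with SeV, near the 3.14% of all tested genes. Of 278 genes lowered by PAM, 28 (10.07%) were called higher in the pair, and of 242 lowered by SeV, 12 (4.96%), both near the shares of all tested genes (10.7% and 5.17%). Each set was chosen with a group that enters the second comparison, so these shares are a description. Rgs2, which dampens G-protein signalling, was at 429, 312 and 192.03 CPM in Ctrl, 26.2, 20.1 and 11.1 with PAM, 459, 728 and 675 with SeV and 65.8, 122 and 84.1 with the pair. No groups overlapped, and the pair differed by 2.27 from PAM and -2.74 from SeV (adjusted p = 0.000114 and 1.34e-18, edgeR). Fosl2, a subunit of AP-1, was at 177, 181 and 211 CPM with PAM, 66.9, 53.7 and 42.2 with SeV and 47, 25.7 and 49.1 with the pair, where SeV and pair overlapped. Rgs2 and Fosl2 were named after their values were seen, as were Ccl12, Clec7a, Cxcl9, Fcgr1, H2-DMa, Ifit3 and Irf3.

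Nearest the midpoint by rule were Ly86, Abcg1 and Rhoq. Ly86, the partner of the receptor RP105, was at 59, 50.3 and 38.9 CPM with PAM, 287, 360.2 and 300.2 with SeV and 132, 135 and 133 with the pair. Abcg1, a cholesterol exporter, was at 112, 151 and 94.5 CPM with PAM, 602, 897 and 718 with SeV and 310.3, 340.3 and 189 with the pair. Rhoq, a small GTPase, was at 328, 271 and 272 CPM with PAM, 38.2, 38.3 and 23.5 with SeV and 103, 103 and 112 with the pair. In all 3 the pair overlapped neither single. The call of Abcg1 against PAM was lost with library size alone (0.94), that of Ly86 against PAM in thinned libraries (0.93, adjusted p = 0.198, edgeR), and that of Rhoq against SeV was lost without replicate 3 of SeV (adjusted p = 0.0734, edgeR).

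Of 7 tested MHC class II genes, none was called against PAM (14.6% over all tested genes) and 1 against SeV (8.31%), which is near the background. That gene was the peptide-loading chaperone H2-DMa, at 143, 245 and 309.6 CPM with SeV and 65.8, 122 and 140.2 with the pair. H2-Aa was at 2326 ± 124 CPM with PAM, 2269 ± 140.3 with SeV and 2499 ± 323 with the pair (SD, n = 3). Of 13 tested costimulation and maturation genes, 8 were called higher than with PAM (median 1.25, against 10.7% of all tested genes) and 5 higher than with SeV (median 0.90, 5.17%). With library size alone these were 6 and 3. Cd274, which encodes the checkpoint ligand PD-L1, was at 538, 493 and 539 CPM with PAM, 1175, 1364 and 1384 with SeV and 1570.2, 1869 and 1829 with the pair, and lay at the SeV level with Il15 and Il15ra. Ccr7, which guides dendritic cells to lymph nodes, was above each single by less than the threshold (0.64 and 0.70).

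Of 18 tested metabolic and effector genes, 4 were above both (against 0.72% of all tested genes), 6 at the PAM level (5.38%) and Upp1 at the SeV level (medians 0.35 from PAM and 1.61 from SeV). Slc7a2, an arginine transporter, was at 2014, 1805 and 1778 CPM with PAM, 468, 429 and 375 with SeV and 2003, 1991 and 2039.7 with the pair, where PAM and pair overlapped. Of 14 tested phagocyte receptors, 6 were at the PAM level (against 5.38% of all tested genes), of which Mrc1, Ccr2, Fcgr3 and Clec7a were called lower than with SeV (3.14%). Clec7a, the beta-glucan receptor, was at 262, 256 and 278 CPM with PAM, 793, 927 and 877 with SeV and 319.7, 315 and 210.3 with the pair. The antibody receptor Fcgr1 was at the SeV level, at 13.1, 20.1 and 33.3 CPM with PAM, 592, 636 and 643 with SeV and 367, 584 and 421 with the pair. Csf1r, the receptor of the macrophage growth factor, was at 1378, 1307 and 1344 CPM with PAM, 1175, 1464 and 1266 with SeV and 968, 816 and 911 with the pair, below each by less than the threshold (-0.59 and -0.54). The summed macrophage markers, which hold Csf1r, were lowest in the pair too, but without the TMM factors used for Csf1r here. Their part in these differences was not tested.

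**Figure D5:**
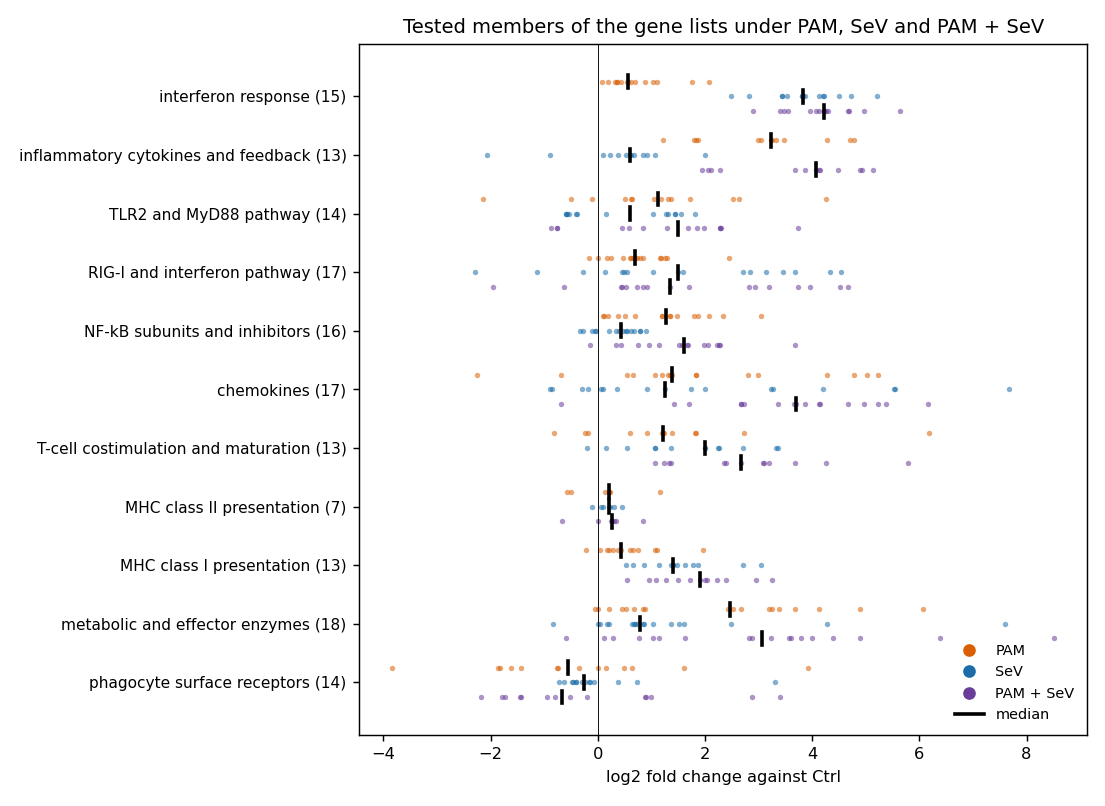
Points are tested members of each gene list, with the log2 difference from Ctrl on the x axis for PAM, SeV and PAM + SeV and bars at the medians. In the pair, interferon-response genes lie with SeV and inflammatory genes with or beyond PAM.

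Genes below both singles numbered 4 (0.0847%). Cyth4, an exchange factor for ARF proteins, was at 151, 231 and 183 CPM with PAM, 239, 229.9 and 263 with SeV and 84.6, 89.9 and 105 with the pair. Atp13a2, a lysosomal polyamine transporter, was at 190.3, 206 and 183 CPM with PAM, 162, 146 and 164 with SeV and 103, 57.8 and 42.1 with the pair. The pair overlapped neither single in these genes. Rassf3 and Fkbp1b, named after their values were seen, had no count in the pair, at least 4.06-fold and 5.33-fold below PAM and each at least 3.31-fold below SeV, against 3 counts over the group. The class was empty without replicate 3 of SeV and by DESeq2, held 1 gene without replicate 2 of SeV and 2 without replicate 1 of SeV or replicate 1 or 2 of the pair, and grew to 15 with library size alone. The call of Cyth4 was lost without replicate 1 or 2 of the pair, replicate 2 of PAM or replicate 1 or 3 of SeV, without the filter and by DESeq2, and that of Atp13a2 without replicate 2 or 3 of the pair or any replicate of SeV, in thinned libraries and by DESeq2.

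An interaction, the pair minus both singles plus Ctrl, asks whether log2 effects add up. It passed for 47 genes (0.996%), 13 positive (0.275%) and 34 negative (0.72%). The split was 20 and 26 with RLE factors and 11 and 47 with library size alone, and 29 genes passed without replicate 3 of Ctrl, 26 in thinned libraries and 82 with the compared groups alone. Of the 34 negative ones, 30 had been raised over Ctrl by each single, as had 118 of the 4720 tested genes. The interaction uses the same PAM, SeV and Ctrl libraries, so high singles or a low Ctrl favour a negative value, and the count is a description. Irg1 was one of them (-1.40, adjusted p = 2.28e-08, edgeR), with Slc7a2 (-1.41). Of the 13 positive ones, 7 had been lowered by PAM, which shares libraries with the interaction in the same way. Atf3, a stress-induced transcription factor, was at 582, 536 and 758 CPM in Ctrl, 243, 241 and 217 with PAM, 497, 521 and 511 with SeV and 536, 694 and 512 with the pair. PAM libraries were below those of the other 3 groups, and the interaction was 1.64 (adjusted p = 9.05e-07). Arhgap25, a regulator of Rac, was at 540.2, 461 and 557 CPM in Ctrl, 6.56, 35.2 and 11.1 with PAM, 95.6, 107 and 183 with SeV and 75.2, 103 and 56.1 with the pair (3.95).

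Il6 and Ccl4 had positive interactions of 1.57 (adjusted p = 0.0123, edgeR) and 0.89 (adjusted p = 0.0469). That of Ccl4 was lost on leaving out any 1 of the 12 libraries, at adjusted p from 0.0554 to 0.36. That of Il6 was lost without replicate 3 of SeV (adjusted p = 0.0521) and without replicate 3 of Ctrl (1.10, adjusted p = 0.504). In thinned libraries the interactions of Ccl4, Il6 and Rnd3 were lost as well (adjusted p = 0.145, 0.196 and 0.416, edgeR), and that of Ccl4 without the filter (0.0725). Rnd3 (3.56) lost its call without replicate 2 of PAM, replicate 3 of SeV or replicate 3 of Ctrl, at adjusted p of 0.063, 0.0523 and 0.244.

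Over the 21 pairs of the series, PAM + SeV ranked 4 by its 34 genes above both, after PAM + cGAMP (69), PAM + LPS (38) and cGAMP + CpGB (35). The other 5 pairs with SeV had 0 by edgeR, with 13 genes for LPS + SeV, 8 for HMW + SeV, 10 for Zymosan + SeV, 7 for SeV + cGAMP and 9 for SeV + CpGB at an unadjusted p under 0.05, where PAM + SeV had 59. The effect of adding PAM was not called different between SeV and cGAMP, a ligand of the STING pathway, for any gene (0%) by edgeR or DESeq2, with 279 genes (5.91%) at an unadjusted p under 0.05 and 6 genes called by edgeR when those 4 groups were fitted alone. Il6 was at 177 ± 38.9 CPM with cGAMP and 5896 ± 253 with PAM + cGAMP (SD, n = 3), and both effects of PAM differed by -0.13 (SE 0.31).

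The effect of adding SeV differed between PAM and LPS, a ligand of TLR4, for 373 genes (7.9%), 332 (7.03%) more positive with PAM and 41 (0.869%) more negative. With library size alone these were 271 and 89. Cxcl10 was at 7305 ± 466 CPM with LPS and 10149 ± 377 with LPS + SeV (SD, n = 3), and the effects of SeV differed by 3.94 (SE 0.26, adjusted p = 2.19e-33, edgeR). Ccl4 was at 4198 ± 101 and 5991 ± 109 CPM, with a difference of 2.11 (SE 0.22). Il6 was at 1266 ± 156 and 1793 ± 214 CPM, with a difference of 1.30 (SE 0.20).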

How the data were processed

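The authors deposited whole-number UMI counts per gene symbol without normalization. BWA 0.7.15 and mm10 are named in the submitters' processing notes. The annotation, UMI collapsing and treatment of reads matching several genes are not given in the sources used here. In R 4.3.3 with edgeR 4.0.16, filterByExpr kept 4720 of 23481 genes (95.72% of counts). TMM factors and 1 quasi-likelihood fit with a coefficient per group covered all libraries (128 residual degrees of freedom), and p-values were adjusted by Benjamini-Hochberg over tested genes. CPM use TMM-scaled library sizes, except marker sums, which use library totals. Fitted log2 values use edgeR's default prior count, and log2 CPM for the correlations of libraries a prior count of 2. The fit was tested on simulated data. Members, lists, tests and the rule for named genes were chosen with earlier results of these data known. That rule took 9 genes by name, the genes with the largest margins in each class above 50 CPM, and the called or most abundant members of each list. Alternatives were RLE factors (DESeq2's size factors), library size alone, no filter, DESeq2 1.42.0, the compared groups alone, thinned libraries, a replicate block, no fold threshold and leaving out each library. Floors of 3 counts cover counting error only.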

Additional observations from a re-analysis of the deposited data

Results flagged for a closer look

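The PAM effect differed between cells with and without SeV for 47 genes by a test of the difference itself. The named ones were Ccl4 (0.89 on the log2 scale), Il6 (1.57), Rnd3 (3.56), Arhgap25 (3.95) and Atf3 (1.64) on the positive side. On the negative side were Mx1 (-0.87), Tlr2 (-1.54), Icam1 (-0.95), Irg1 (-1.4), Slc7a2 (-1.41), Gpd2 (-2.69), Slco3a1 (-3.98) and Med11 (-6.73). Ctrl held 0 counts of Med11, 1 of Slco3a1 and 3 of Gpd2, so these 3 values depend on the prior count and are no bounds. The calls of Ccl4, Il6, Rnd3, Mx1, Tlr2, Icam1, Gpd2 and Med11 were each lost on leaving out at least 1 library. Those of Mx1 and Icam1 were also lost with RLE factors (adjusted p = 0.0505 and 0.0659, edgeR). Those of Mx1, Tlr2, Icam1 and Gpd2 were lost in thinned libraries (adjusted p = 0.156, 0.285, 0.102 and 0.185, edgeR). So were those of Ccl4, Il6 and Rnd3.

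The SeV effect differed between cells with PAM and with LPS for 373 genes by a test of the difference. By the naming rule these include BC147527 (6.47), Slc28a2 (5.03), Zadh2 (-4.08) and Ampd3 (-3.76). BC147527 had no count with PAM and Slc28a2 had 1, so their values depend on the prior count and are no bounds. Against a floor of 3 counts over the PAM group, BC147527 was at least 9.63-fold higher in the pair. The pair held 1 count of Zadh2 and 3 of Ampd3, and the calls of both were lost on leaving out several single libraries.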

How the results depend on the processing

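With library size alone, 21 genes were above and 15 below both singles. DESeq2 gave 422 genes against PAM, 685 between the singles, 292 at the SeV level and 0 below both. Without the filter, 1 gene was below both and 1 differed between SeV and cGAMP. With the compared groups alone these were 8 and 6, with 82 interactions. Thinned libraries gave 1 and 2, with 26 interactions. Without the fold threshold, 79 genes were above and 9 below both. The cause of these shifts was not tested. Leaving out 1 library gave 0 to 4 genes below both, 24 to 37 above both and 29 to 46 interactions. Uncalled values that changed sign with library size alone were Ldha against PAM (-0.149) and, against SeV, Icam1 (-0.019), H2-Aa (-0.121) and H2-Ab1 (-0.014). Il10, with 1 count per stimulated group, ranged from -1.811 to 2.097 against PAM over left-out libraries. With the replicate number as a block, 34 genes were above and 4 below both, 691 differed from PAM, 392 from SeV and 54 were interactions, and none of 136 named results changed its call. The 18 correlations of same-numbered libraries were weak (-0.0142 to 0.0352, median 0.0101, against -0.00455 for other pairs) and none passed 0.1, so the numbers were not taken to pair samples, although 9 of 12 libraries correlated best with their own number. Depth limits genes of few counts most, above all in Ctrl.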
